A study of Mus musculus with 60 samples.

Results

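The 10 genes described here, Slc1a3, Slc1a2, Fabp7, Aldoc, Ndrg2, Mt3, Sparcl1, Aldh1l1, Ttyh1 and Tnc, are expressed by radial glia and early astroglia of the mouse brain. They were taken as the rows of the deposited expression table that carry these gene symbols, 10 of 24378 listed features, and each symbol had 1 row. The study sequenced RNA of dissected mouse embryonic brain tissue in 20 groups of 3 libraries. The groups were the ventral midbrain, ventral forebrain, ventral hindbrain, dorsal midbrain and alar plate, each taken daily from E11.5 to E14.5. All 60 libraries came from TH-GFP embryos, whose reporter was used to find tissue under the stereomicroscope, so no group lacks the transgene. The pieces were whole dissected tissue and were not sorted by cell type. Whether the 3 libraries of a group were separate embryos is not stated, and p-values therefore measure only the spread between these samples.

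Radial glia are the elongated progenitors of the embryonic brain. They line the ventricle, guide migrating neurons, give rise to neurons first and to astrocytes later, and share many transcripts with the astrocytes that follow them. Glutamate uptake, fatty acid binding, one-carbon metabolism and secretion of matrix proteins are among the functions known for this lineage. In the ventral midbrain, radial glia of the floor plate give rise to dopaminergic neurons.

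Each gene is on a different mm10 chromosome, by GENCODE vM21, and all are protein coding. Slc1a3 spans chr15:8634124-8710764 on the minus strand, Fabp7 chr10:57784881-57788450 on the plus strand, Aldoc chr11:78322968-78327781 on the plus strand, Aldh1l1 chr6:90486427-90600203 on the plus strand and Tnc chr4:63959785-64047015 on the minus strand. Promoter windows (RefSeq, GRCm38.p6, 250 bases before a transcript start) were matched for 9 of the 10 genes, with 13 windows in all. Sparcl1 had none. Each window was searched on both strands for TGGGAA, the core bound by RBPJ, the factor through which Notch acts in radial glia. The core was in 6 of the 13 windows, against 21.6% of all 32851 windows of this length. These windows belong to 4 of the 9 genes, and a gene with several windows has more chances of a match. One window of each of these 4 genes is shown, since they range from the steadiest gene of the group (Fabp7) to the steepest (Tnc). The sequences run 5' to 3' on the gene's strand and stop before the first base that GENCODE places in an exon, and capitals mark the core or its reverse complement.
Fabp7, chr10:57784673-57784880, plus strand: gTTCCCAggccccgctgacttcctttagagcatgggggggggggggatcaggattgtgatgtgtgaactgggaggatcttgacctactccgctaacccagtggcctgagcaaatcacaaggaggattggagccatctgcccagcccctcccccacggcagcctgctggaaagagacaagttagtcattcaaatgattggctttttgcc
Aldoc, chr11:78322823-78322967, plus strand: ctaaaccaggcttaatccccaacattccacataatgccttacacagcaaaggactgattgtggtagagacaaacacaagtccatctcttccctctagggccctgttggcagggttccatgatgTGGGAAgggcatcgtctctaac
Aldh1l1, chr6:90550543-90550788, plus strand, inside the annotated gene span: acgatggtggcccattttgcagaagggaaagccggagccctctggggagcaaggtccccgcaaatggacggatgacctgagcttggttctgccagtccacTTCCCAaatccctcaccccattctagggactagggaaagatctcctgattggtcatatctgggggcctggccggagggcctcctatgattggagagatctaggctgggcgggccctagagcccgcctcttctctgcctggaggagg
Tnc, chr4:64047016-64047265, minus strand: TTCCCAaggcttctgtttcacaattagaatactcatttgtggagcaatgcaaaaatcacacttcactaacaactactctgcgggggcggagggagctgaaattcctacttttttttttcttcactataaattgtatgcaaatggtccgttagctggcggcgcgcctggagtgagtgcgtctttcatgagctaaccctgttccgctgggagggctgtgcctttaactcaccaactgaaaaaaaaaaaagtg
A match is a run of letters and not a measured binding site. The NFI core TTGGCA was in 2 of the 13 windows (of Aldoc and Tnc), against 12.3% of all windows. The full palindromic NFI site, which overlaps that core, was in 0 of 13 windows, against 0.0365%. The SOX core ACAAAG was in 0 of 13 windows (16.5% of all windows) and TATAAA in 4 of 13, of 3 genes (12.4%). The metal response elements TGCGCNC and TGCACNC were each in 0 of 13 windows (12.51% and 10.4%).

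Values are RPKM, reads scaled by transcript length and library size, and differences are on the log2(RPKM + 1) scale with their standard errors. The E12.5 and E13.5 libraries were mostly deeper, with 4973179 to 23581727 assigned reads each, against 979197 to 6431836 at E11.5 and E14.5. By the average of correlations across genes with the libraries of each region, 8 of the 15 E11.5 libraries matched another region better than their own. They were all 3 of the ventral forebrain, all 3 of the alar plate, ventral hindbrain replicate 2 and ventral midbrain replicate 4. The gaps were uneven. Ventral hindbrain replicate 2 was nearly tied (r of 0.961 with its own region, 0.962 with another), and alar plate replicate 2 was further off (0.931 and 0.979). At E12.5 another region matched better for 3 of 15 libraries, all 3 of the alar plate (r of 0.935 to 0.962 with their own region, against 0.939 to 0.975 with another). This held for 0 of 15 at E13.5 and at E14.5. At E12.5 ventral forebrain replicate 1 and alar plate replicate 3 stood apart, with 115.5 and 77.2 RPKM of the isthmic and thalamic gene Gbx2. By name prefixes in the sample descriptions, all 5 regions shared a run at E13.5, and are taken to have shared one at E12.5. At E11.5 the dorsal midbrain was run apart from the rest, and so were both midbrain regions at E14.5. No region had 2 stages in the same run, so stage and run cannot be told apart. In bulk tissue, fewer cells of a type and less RNA per cell cannot be told apart either.

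The label of the group was checked against other markers. Radial glial Vim and Nes had medians of 287 and 56.5 RPKM over the 15 E14.5 libraries. The astrocyte intermediate filament Gfap was at 0 in 13 of those 15 libraries and reached at most 0.111 RPKM. S100b was at 0 in 6 of them and reached at most 1.16 RPKM. The water channel Aqp4 was detected in all 15, with a median of 0.413 RPKM and at most 4.3 RPKM.

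Fabp7, a brain fatty acid binding protein and a classic radial glial marker, was the most abundant of the 10 genes, with 125 to 1164 RPKM and a median of 547 RPKM over the 60 libraries. Ttyh1, a membrane protein of the tweety family, had a median of 54.1 RPKM. Sparcl1, Slc1a3 and Slc1a2 had medians of 25.6, 22.8 and 20.3 RPKM. Mt3, Ndrg2 and Aldh1l1 had 16.5, 14.4 and 11.3 RPKM, and Tnc and Aldoc had 3.91 and 2.54 RPKM. The low genes rest on few reads. Aldoc had under 10 reads in 17 libraries, Tnc in 9, Mt3 in 7, Ndrg2 in 2 and Aldh1l1 in 1.

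**Figure D1:**
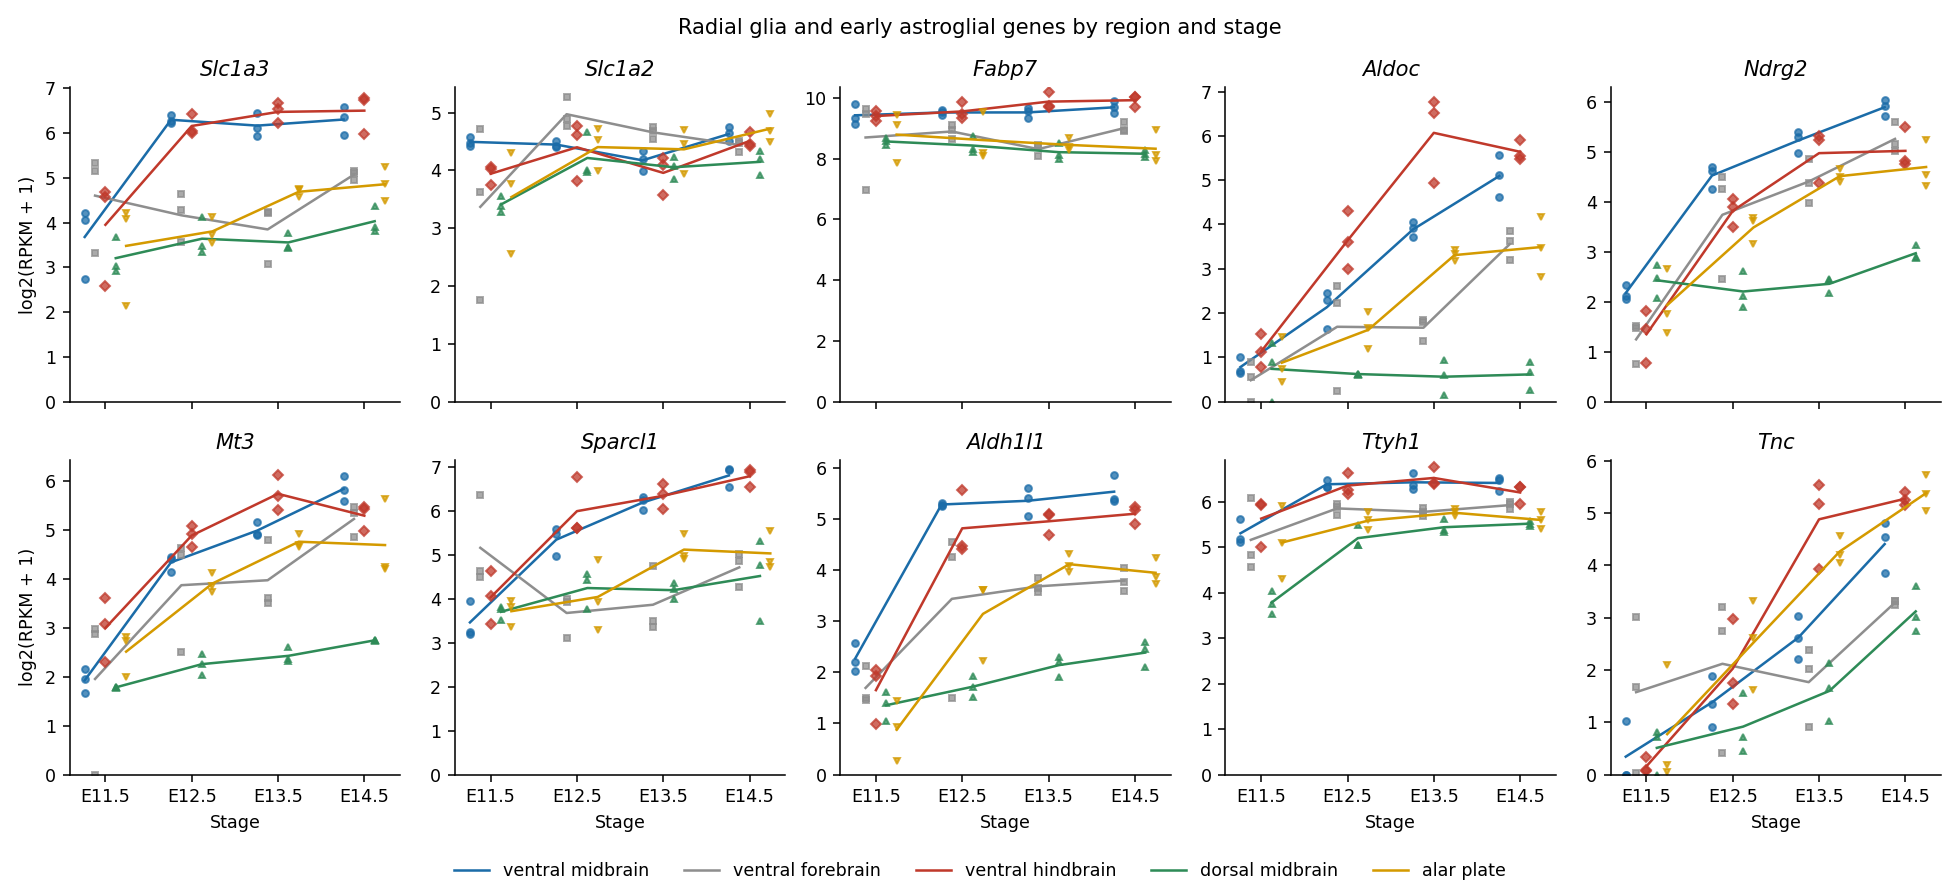
Expression of the 10 genes as log2(RPKM + 1) (y axis) at the 4 stages (x axis). Points are single libraries, lines join the means of 3 libraries, and colours mark the 5 regions. Fabp7 stayed high throughout, and Aldoc in the dorsal midbrain was at most 1.5 RPKM in every library.

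From E11.5 to E14.5 most of these genes rose. With the 5 regions averaged, 7 of the 10 genes were higher at E14.5 than at E11.5 and none was lower. Calls required both an absolute log2 difference of at least 1 and a limma p, adjusted by Benjamini-Hochberg over all genes tested, below 0.05. Of the 14590 genes tested, 8.23% were called higher and 6.07% lower. The median difference was 2.05 for the 10 genes and -0.06 for all genes tested. Slc1a2, Ttyh1 and Fabp7 were not called, with 0.74 ± 0.19 (adjusted p = 0.0015), 0.94 ± 0.14 (adjusted p = 3.63e-06) and 0.05 ± 0.20 (adjusted p = 0.846). Without the 8 E11.5 libraries that matched another region best, which leaves 3 regions, the same 7 genes and Ttyh1 (1.09 ± 0.08) passed. With E12.5 as the earlier stage, where 127 of 14227 genes were called in either direction, 3 of the 10 genes passed: Tnc (2.50 ± 0.23), Aldoc (1.74 ± 0.20) and Ndrg2 (1.22 ± 0.16).

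Tnc, which encodes the matrix glycoprotein tenascin C, had the largest difference of the 10, 3.62 ± 0.23 (adjusted p = 2.61e-12). It had 51.9, 40.4 and 32.0 RPKM in the E14.5 alar plate, against 0.133, 3.25 and 0.0334 RPKM at E11.5. In the ventral hindbrain it had 41.5, 34.9 and 37.1 RPKM at E14.5, against 0.261, 0.0549 and 0.0441 RPKM at E11.5. The stages did not overlap in either region. In the ventral forebrain they did not overlap either, but the E11.5 libraries were uneven, with 8.97, 8.94 and 8.42 RPKM at E14.5, against 2.21, 0.0234 and 7.06 RPKM at E11.5. Tnc was also the one gene of the 10 that was called higher in all 3 daily steps.

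Both metabolic genes rose. Aldoc encodes aldolase C, the glycolytic isoenzyme of brain, and rose by 2.88 ± 0.16 (adjusted p = 3.29e-13). It had 46.1, 33.5 and 23.6 RPKM in the E14.5 ventral midbrain, against 1.02, 0.555 and 0.613 RPKM at E11.5. Aldh1l1 encodes a folate enzyme widely used as an astrocyte marker, and rose by 2.58 ± 0.12 (adjusted p = 6.3e-14). It had 39.6, 57.3 and 40.7 RPKM in the E14.5 ventral midbrain, against 3.62, 3.08 and 4.94 RPKM at E11.5. In both genes the stages were far apart in this region.

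Ndrg2, an astrocyte-enriched member of the NDRG family, rose by 2.95 ± 0.14 (adjusted p = 4.21e-14), and Mt3, the brain-enriched metallothionein that binds zinc and copper, by 2.52 ± 0.23 (adjusted p = 6.29e-10). Ndrg2 had 60.2, 64.8 and 52.4 RPKM in the E14.5 ventral midbrain, against 4.09, 3.37 and 3.18 RPKM at E11.5. Mt3 had 55.4, 68.0 and 47.0 RPKM there at E14.5, against 2.89, 3.45 and 2.16 RPKM at E11.5. Again no library of one stage reached the other.

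Sparcl1, a secreted matricellular protein also called hevin, rose by 1.56 ± 0.19 (adjusted p = 8.12e-08). It had 120, 124 and 91.8 RPKM in the E14.5 ventral midbrain, against 8.18, 8.46 and 14.4 RPKM at E11.5. The ventral forebrain did not follow (-0.45 ± 0.50, adjusted p = 0.485), with 18.3, 31.4 and 27.9 RPKM at E14.5, against 23.9, 21.4 and 81.1 RPKM at E11.5, where the stages overlapped. The library at 81.1 RPKM, E11.5 replicate 6, also had the highest sum of 8 mesenchymal and meningeal markers at its stage, 1274 RPKM against 4.96 and 190 RPKM in the other two of its group. Its sums were also high for 7 pericyte markers (158.8 RPKM, against 85.6 and 67.5 RPKM) and for 8 endothelial markers (161 RPKM, against 35.2 and 96.0 RPKM). Their part in the Sparcl1 value was not tested.

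Of the 2 glial glutamate transporters, 1 was called. Slc1a3 (GLAST), the one typical of radial glia, rose by 1.57 ± 0.25 (adjusted p = 4.89e-06) and had 60.8, 95.0 and 81.6 RPKM in the E14.5 ventral midbrain, against 17.7, 5.71 and 15.7 RPKM at E11.5. Slc1a2 (GLT-1), which dominates in mature astrocytes, had 25.9, 24.0 and 21.6 RPKM there at E14.5, against 21.2, 23.0 and 20.5 RPKM at E11.5. Those Slc1a2 values overlapped between the stages, and the test found 0.14 ± 0.10 (adjusted p = 0.244). Fabp7 had 828, 940 and 717 RPKM at E14.5, against 893, 563 and 642 RPKM at E11.5, and the stages overlapped. A test of the difference between the 2 transporters was not made.

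**Figure D2:**
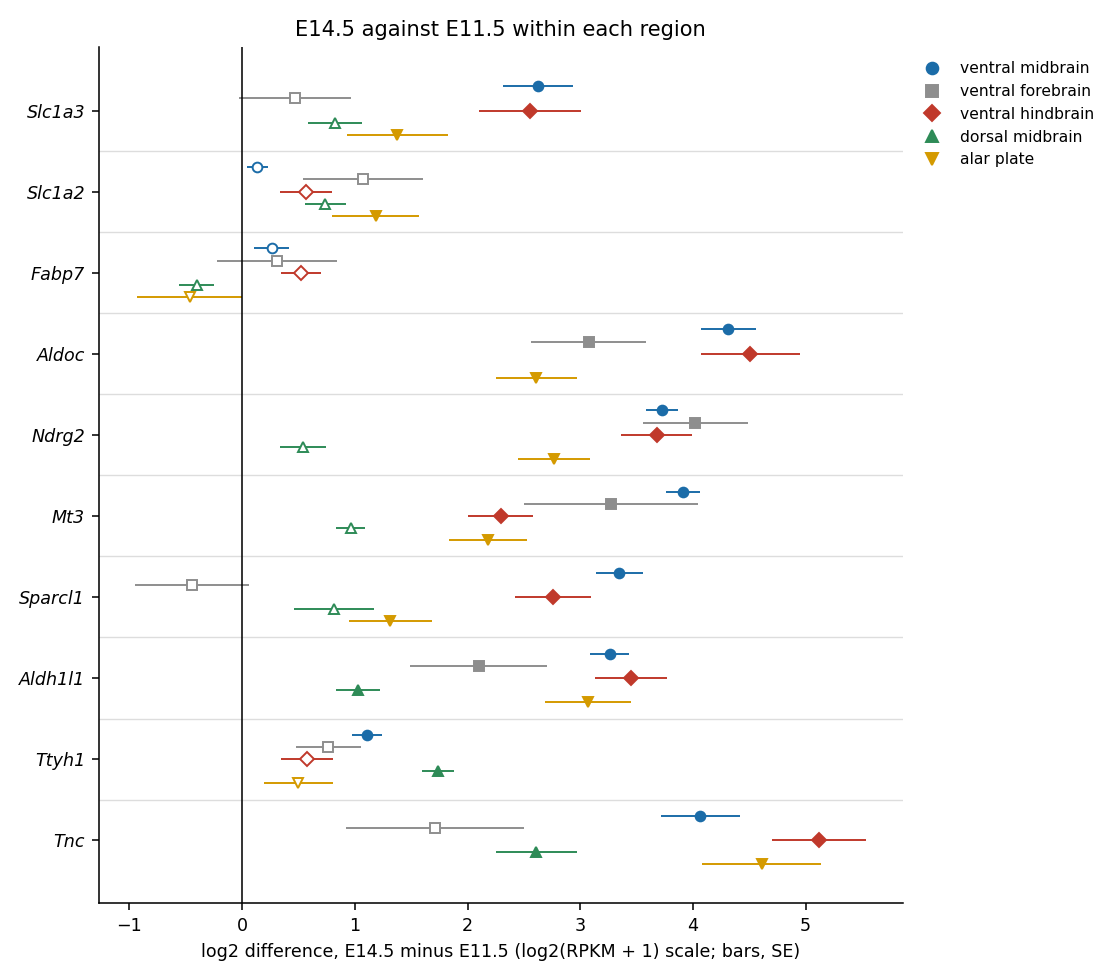
Log2 difference between E14.5 and E11.5 for each gene (rows) in each region (colours), with bars for the standard error and n = 3 libraries per group. Filled symbols passed both thresholds. Aldoc has no dorsal midbrain point because its mean stayed below 1 RPKM there at all stages.

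Region by region, the count of genes that rose between E11.5 and E14.5 was 8 of 10 in the ventral midbrain, where 10.4% of all genes tested were called higher, and 8 of 10 in the alar plate (10.9%). It was 7 of 10 in the ventral hindbrain (9.98%), 4 of 10 in the ventral forebrain (9.63%) and 3 of 9 tested in the dorsal midbrain (7.81%). None of the genes fell past the thresholds in any region, where 7.41% of all genes did in the ventral midbrain, 9.3% in the alar plate, 6.63% in the ventral hindbrain, 6.74% in the ventral forebrain and 8.07% in the dorsal midbrain. All E11.5 libraries of the ventral forebrain and alar plate matched another region best. With E12.5 as the earlier stage the counts were 5 in the ventral midbrain, 0 in the alar plate, 3 in the ventral hindbrain, 0 in the ventral forebrain and 1 in the dorsal midbrain, where 586, 1, 173, 189 and 120 of all genes were called. In the alar plate the count dropped to 5 without E14.5 replicate 2, when Slc1a3, Slc1a2 and Sparcl1 were lost. The ventral forebrain genes that rose were Ndrg2 (4.02 ± 0.46), Mt3 (3.27 ± 0.77), Aldoc (3.07 ± 0.51) and Aldh1l1 (2.10 ± 0.61). Mt3 and Aldh1l1 did not pass there with voom on the recovered reads (adjusted p = 0.0642 and 0.212).

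In the dorsal midbrain Tnc, Ttyh1 and Aldh1l1 rose. Ttyh1 had its largest estimate there, 1.74 ± 0.14, with 46.5, 43.7 and 44.7 RPKM at E14.5, against 15.5, 12.6 and 10.7 RPKM at E11.5. Tnc had 2.61 ± 0.36 and Aldh1l1 1.03 ± 0.19, while Ndrg2 (0.54 ± 0.20) and Mt3 (0.96 ± 0.13) stayed under the fold threshold. Mt3 passed there with a pseudocount of 0.1 RPKM (1.19 ± 0.16) and with voom on the recovered reads (1.21 ± 0.33). Aldoc had 0.871, 0.594 and 0.203 RPKM at E14.5, against 0, 0.863 and 1.5 RPKM at E11.5, and was too low to be tested. The Aldh1l1 call was lost without E11.5 replicate 4 (0.88) or E14.5 replicate 3 (0.92) or 4 (0.99). Slc1a3 passed without E11.5 replicate 4 (1.06), and Sparcl1 without E14.5 replicate 2 (1.33). The difference among regions itself was tested over 30 libraries and was called for 5 of the 10 genes, Aldoc, Ndrg2, Sparcl1, Aldh1l1 and Tnc, where 4.32% of all genes were called. Ttyh1 (adjusted p = 0.274) and Slc1a3 (adjusted p = 0.18) were not among them. Without the 8 E11.5 libraries that matched another region, 8 of the 10 genes were called, where 1154 of 14470 genes were, with Ttyh1 (adjusted p = 1.52e-04), Slc1a3 (adjusted p = 0.0297) and Mt3 (adjusted p = 3.04e-04) added. Keeping libraries by their match to their own region in these same values favours such regional differences. In the fit of 30 libraries Mt3 was not called (adjusted p = 0.0645). It joined the 5 genes when any of the 3 ventral forebrain E11.5 libraries, alar plate E11.5 replicate 4 or alar plate E14.5 replicate 2 was left out (adjusted p = 0.00313 to 0.0478). Also, with E12.5 as the earlier stage 0 of the 10 were called and 313 of all genes were. By name prefixes, neither midbrain region shared its pair of runs at E11.5 and E14.5 with another region. Run and regional change therefore cannot be told apart for them.

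Of the 3 daily steps, the first had the most calls. Between E11.5 and E12.5, 6 of the 10 genes rose, where 5.33% of all genes were called higher. These were Aldh1l1 (2.11 ± 0.24), Ndrg2 (1.73 ± 0.18), Mt3 (1.62 ± 0.25), Aldoc (1.14 ± 0.21), Tnc (1.12 ± 0.31) and Slc1a3 (1.03 ± 0.25). Slc1a3 fell under the fold threshold when any of 8 single libraries was left out (lowest 0.89, without ventral hindbrain E11.5 replicate 2), and Tnc (0.97) without ventral forebrain E11.5 replicate 4. Without the 8 E11.5 libraries that matched another region, Sparcl1 (1.32 ± 0.24) and Ttyh1 (1.02 ± 0.09) passed too.

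Between E12.5 and E13.5 only 8 of 13994 genes, 0.0572%, were called higher and none lower, and 2 of those 8 were Tnc (1.23 ± 0.27, adjusted p = 0.00446) and Aldoc (1.16 ± 0.21, adjusted p = 0.00141). The other 6, named here because they were so few, were Otp, Olig1, Xlr3b, Pcp4, Bcan and Nkx2-1. Olig1 marks oligodendrocyte precursors and Bcan encodes the matrix proteoglycan brevican. Without the 2 E12.5 libraries that stood apart, Aldoc (0.97 ± 0.17, adjusted p = 2.18e-04) and Tnc (0.97 ± 0.21, adjusted p = 0.0019) were just under the fold threshold and 4 genes were called in all. Between E13.5 and E14.5, 1 of the 10 genes was called higher, Tnc (1.27 ± 0.17, adjusted p = 6.99e-07), where 0.0562% of 14236 genes were. The other 7 genes called in that step were Grm5, Tmem181b-ps, Grin2b, Luzp2, Mal2, C77370 and B230209E15Rik.

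Within the ventral midbrain the genes took different courses. From the earliest to the latest stage, Slc1a3 averaged 13.0 ± 6.42, 77.7 ± 4.90, 71.6 ± 13.6 and 79.2 ± 17.2 RPKM (SD, n = 3), so its E12.5 mean was already close to that of E14.5. Aldh1l1 averaged 3.88 ± 0.957, 37.8 ± 0.758, 40.3 ± 7.73 and 45.9 ± 9.93 RPKM, with the same early step. Aldoc averaged 0.731 ± 0.256, 3.51 ± 1.24, 13.9 ± 1.75 and 34.4 ± 11.3 RPKM, and Tnc 0.345 ± 0.598, 1.71 ± 0.929, 5.31 ± 1.77 and 21.0 ± 6.96 RPKM. Aldoc and Tnc means were higher at each later day, and their E14.5 libraries lay above those of E13.5. With E12.5 as the earlier stage, the ventral midbrain differences were 0.01 ± 0.31 for Slc1a3 (adjusted p = 0.992) and 0.25 ± 0.17 for Aldh1l1 (adjusted p = 0.288). The E11.5 means include replicate 4, which matched another region best. It had 9.07 RPKM of the region marker Foxa2, against 72.1 and 71.0 RPKM in replicates 2 and 6. Without the 8 such E11.5 libraries, the rise from E11.5 to E14.5 here was 2.16 ± 0.17 for Slc1a3 and 3.14 ± 0.18 for Aldh1l1.

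Between regions, most of the genes were highest in the ventral midbrain or ventral hindbrain and lowest in the dorsal midbrain. The dorsal midbrain had the lowest mean for 5, 9, 8 and 10 of the 10 genes from the earliest to the latest stage, and one of those 2 ventral regions the highest for 6, 8, 9 and 8. How often all genes take these orders was not computed, so these counts only describe the 10 genes. Averaged over the 4 stages, 6 of the 10 genes were lower in the dorsal midbrain than in the mean of the 4 other regions and none was higher, where 2.31% of all 14692 genes were called lower and 2.21% higher. The ventral hindbrain had 4 of the 10 genes higher (1% of all genes) and the ventral midbrain 3 (1.31%). The ventral forebrain and alar plate had 0 of 10 called in either direction (0.776% and 0.619% of all genes).

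In the dorsal midbrain the differences were -2.18 ± 0.17 for Aldoc (adjusted p = 3.67e-14), -1.88 ± 0.18 for Mt3, -1.83 ± 0.16 for Aldh1l1, -1.40 ± 0.14 for Ndrg2, -1.39 ± 0.18 for Slc1a3 and -1.14 ± 0.23 for Tnc (adjusted p = 3.63e-05). With only the E12.5 and E13.5 libraries, the same 6 genes passed. Regions shared a run at E13.5, and that they did so at E12.5 is assumed. They had -2.41 ± 0.26 for Aldoc, -2.42 ± 0.27 for Aldh1l1, -2.22 ± 0.20 for Mt3, -2.06 ± 0.20 for Ndrg2, -1.60 ± 0.15 for Slc1a3 and -1.44 ± 0.33 for Tnc. The estimates for Fabp7 (-0.78), Sparcl1 (-0.85), Ttyh1 (-0.89) and Slc1a2 (-0.36) were under the fold threshold. Tnc, a low gene, did not pass with voom on the recovered reads (adjusted p = 0.0867).

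The E13.5 libraries all matched their own region best and shared a run. Aldoc had 0.101, 0.518 and 0.925 RPKM in the dorsal midbrain, against 14.1, 12.1 and 15.6 RPKM in the ventral midbrain and 90.5, 29.5 and 107 RPKM in the ventral hindbrain. Aldh1l1 had 3.61, 3.92 and 2.77 RPKM in the dorsal midbrain, against 32.1, 41.5 and 47.4 RPKM in the ventral midbrain. Mt3 had 4.15, 5.05 and 3.97 RPKM in the dorsal midbrain, against 34.7, 28.7 and 29.0 RPKM in the ventral midbrain. All 3 dorsal midbrain libraries lay below all 12 others for 5 of the 10 genes, where 16.1% of all genes did so, and the 6 ventral midbrain and ventral hindbrain libraries lay above all 9 others for 6 of the 10 genes, where 3.78% did. The same counts at E14.5 were 5 (6.99%) and 5 (1.93%), at E12.5 1 (2.44%) and 3 (2.99%), and at E11.5 1 (1.05%) and 0 (0.029%).

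**Figure D3:**
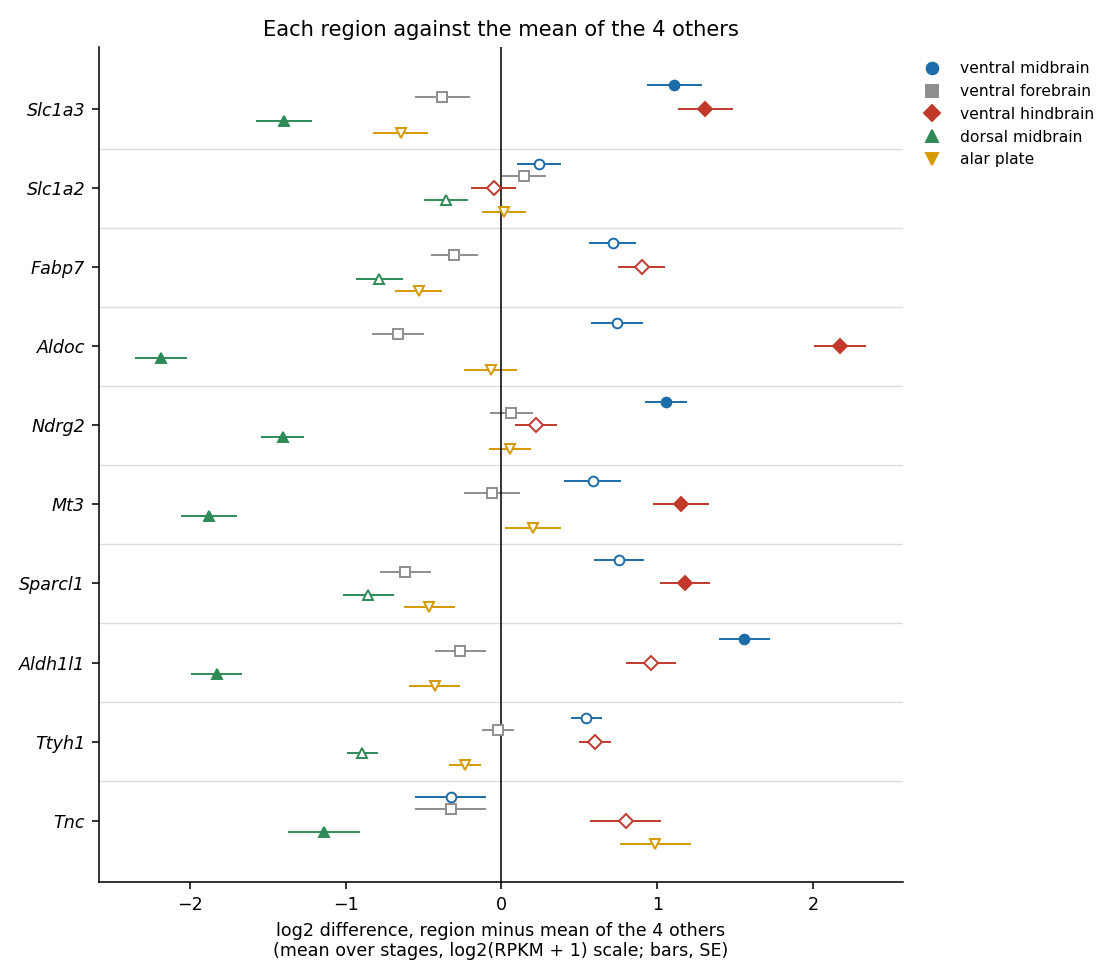
Log2 difference between each region and the mean of the 4 others, averaged over the 4 stages, for each gene (rows) and region (colours), with bars for the standard error (60 libraries in 1 fit). Filled symbols passed both thresholds. The dorsal midbrain lies left of 0 for all 10 genes.

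The ventral midbrain and ventral hindbrain had different sets of called genes. Aldh1l1 (1.56 ± 0.16, adjusted p = 2.83e-10), Slc1a3 (1.11 ± 0.18) and Ndrg2 (1.06 ± 0.14) were higher in the ventral midbrain than in the mean of the others. In the ventral hindbrain it was Aldoc (2.17 ± 0.17, adjusted p = 2.94e-13), Slc1a3 (1.31 ± 0.18), Sparcl1 (1.18 ± 0.16) and Mt3 (1.15 ± 0.18). Within the E12.5 and E13.5 libraries Sparcl1 also passed in the ventral midbrain (1.08 ± 0.21), and Aldh1l1 (1.28 ± 0.27) and Tnc (1.3 ± 0.33) in the ventral hindbrain. The sets depended on the thresholds. Aldh1l1 in the ventral hindbrain, at 0.96, passed with a pseudocount of 0.1 RPKM (1.08 ± 0.21) and with voom on the recovered reads (1.08 ± 0.26). Aldoc in the ventral midbrain also passed with that pseudocount (1.10 ± 0.31) and with voom (1.13 ± 0.36). Neither setting lost a call of these regions. The 2 regions were not tested against each other.

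The ventral forebrain and alar plate differed from the mean of the others only in some settings. Within the E12.5 and E13.5 libraries the ventral forebrain was lower in Sparcl1 (-1.41 ± 0.21), Slc1a3 (-1.09 ± 0.15) and Aldoc (-1.05 ± 0.26). In these libraries the dorsal midbrain was lower still in Slc1a3 (-1.60 ± 0.15) and Aldoc (-2.41 ± 0.26), but not in Sparcl1 (-0.85 ± 0.21). The highest Slc1a2 library of the ventral forebrain, at 37.4 RPKM, was the E12.5 replicate that stood apart, and the other two had 26.3 and 28.5 RPKM. In the alar plate Tnc was near the fold threshold, at 0.99 ± 0.23 (adjusted p = 0.00256), and it passed without the 2 E12.5 libraries that stood apart (1.05 ± 0.21) and, at up to 1.10, when any one of several libraries was left out. At E14.5 Tnc had 51.9, 40.4 and 32.0 RPKM in the alar plate, against 41.5, 34.9 and 37.1 RPKM in the ventral hindbrain, with which it overlapped, and at most 27.2 RPKM in the ventral midbrain, with which it did not. The alar plate's E12.5 libraries, which enter these averages, all matched another region best.

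Stage by stage, regions differed for 0 of the 10 genes at E11.5, where only 0.116% of all genes were called and, at an unadjusted p below 0.05, 2413 of 13802 genes were. They differed for 8 of 10 at E12.5 (14.6%), 9 of 10 at E13.5 (16.8%) and 8 of 10 at E14.5 (15.7%). Single libraries decided some of these calls. At E12.5 Fabp7 was lost without any one of 7 ventral hindbrain, ventral midbrain or dorsal midbrain libraries (adjusted p up to 0.0834) and Ndrg2 without dorsal midbrain replicate 1 (0.0518), while Tnc was gained without ventral forebrain replicate 1 (0.0369). At E13.5 Ttyh1 (1.08) fell to a range of 0.99 without ventral hindbrain replicate 6. At E11.5, without the 8 libraries that matched another region, 6 of the 10 genes were called among the 3 regions left, where 1674 of 13630 genes were. Those libraries were left out by their match in these same values, which favours differences among regions. The count therefore only describes the libraries kept. At E13.5 the order of Aldoc was ventral hindbrain, ventral midbrain, alar plate, ventral forebrain and dorsal midbrain, with no overlap between neighbours. For Slc1a3 the ventral hindbrain and ventral midbrain overlapped, as did the ventral forebrain and dorsal midbrain. Slc1a2 was flattest: every pair of neighbours in its order overlapped at E13.5, and its range of regional values was 0.70 (adjusted p = 0.0333), under the fold threshold.

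Other families and cell classes were set beside these genes. Of 20 tested relatives of the 10 genes, 7 were higher at E14.5 than at E11.5 and 3 were lower. Among the aldolases, Aldoa, the widespread isoenzyme, had -0.32 ± 0.06 where Aldoc had 2.88. In the E14.5 ventral midbrain Aldoa averaged 76.1 ± 2.54 RPKM and Aldoc 34.4 ± 11.3 RPKM, against 71.3 ± 1.15 and 0.731 ± 0.256 RPKM at E11.5 (SD, n = 3). Among the metallothioneins, Mt1 (-1.14 ± 0.28) and Mt2 (-1.93 ± 0.23), the stress-inducible forms, fell while Mt3 rose, though how reads shared by these short, similar genes were counted is not given. Among the amino acid transporters, Slc1a1, the neuronal glutamate transporter EAAC1, rose by 2.08 ± 0.13, Slc1a6 rose by 1.26 ± 0.18, Slc1a5 fell by 1.10, and Slc1a4 had 0.88 ± 0.08. Of the other relatives, Fabp3 (1.63 ± 0.18), Tnr (1.51 ± 0.11), Ndrg4 (1.51 ± 0.14), Ttyh2 (1.11 ± 0.11) and Ndrg1 (1.004 ± 0.15) rose. Ndrg3 (0.58), Ttyh3 (0.49), Aldh1l2 (0.96), Smoc1 (0.66), Smoc2 (-0.57), Sparc (-0.24), Fabp4 (0.41) and Fabp5 (0.08) did not pass.

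**Figure D4:**
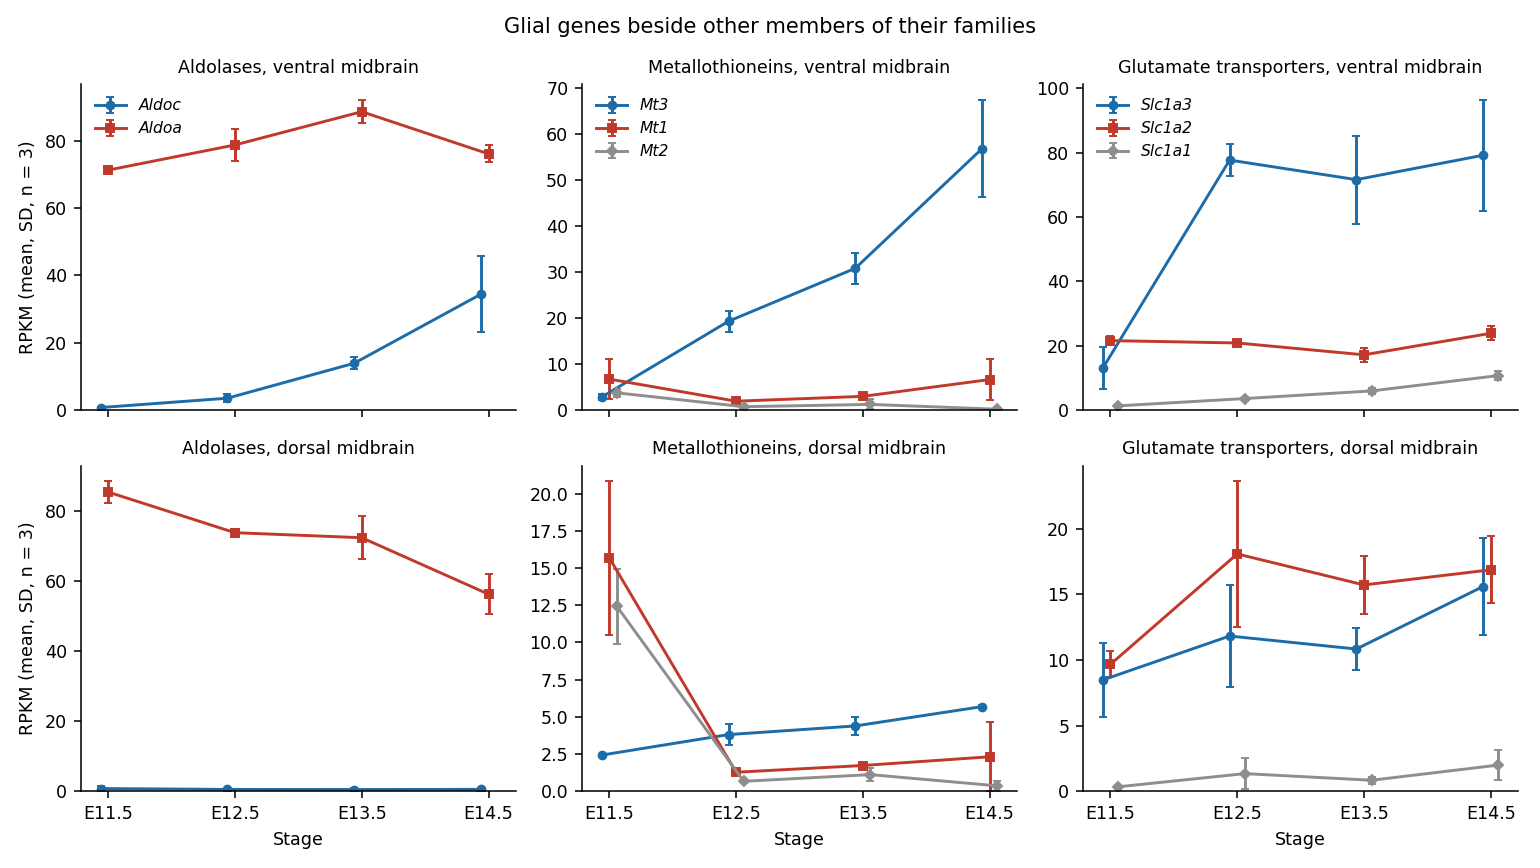
Mean RPKM (y axis, bars for SD, n = 3) at the 4 stages (x axis) of aldolases, metallothioneins and glutamate transporters in the ventral midbrain (top) and the dorsal midbrain (bottom), each panel with its own scale. In the ventral midbrain Aldoc and Mt3 were higher at each later stage beside a steadier Aldoa, and in the dorsal midbrain Aldoc stayed near 0.

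Of 25 tested genes of a wider astrocyte list, 11 rose from E11.5 to E14.5 and 1 fell, Gja1 (-1.31 ± 0.31), which is named because it was the only one. Among those with the smallest p were Bcan (2.50 ± 0.12), Hepacam, an adhesion protein (1.75 ± 0.11), and Ddah1 (1.15 ± 0.10). Among 16 factors that promote or mark gliogenesis, 5 rose and 5 fell. Nfix (2.17 ± 0.19), Nfib (1.62 ± 0.14) and Id4 (1.20 ± 0.12) rose and Fgfr2 (-1.31 ± 0.13) fell. General progenitor genes did not follow the 10 genes: 0 of 16 rose and 7 fell, among them Nes (-1.96 ± 0.12), Vim (-1.38 ± 0.08), Hes5 (-1.61 ± 0.15) and Rfx4 (-1.27 ± 0.10). All 14 of 14 tested cell cycle genes fell, with a median of -2.50, for example Rrm2 (-3.09 ± 0.15) and Mcm2 (-2.50 ± 0.12). Of 12 neuronal genes 6 rose and 1 fell, led by Syt1 (2.05 ± 0.20), Snap25 (1.65 ± 0.17) and Rbfox3 (1.08 ± 0.13), and the part of these changes in the rise of the 10 genes was not tested.

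**Figure D5:**
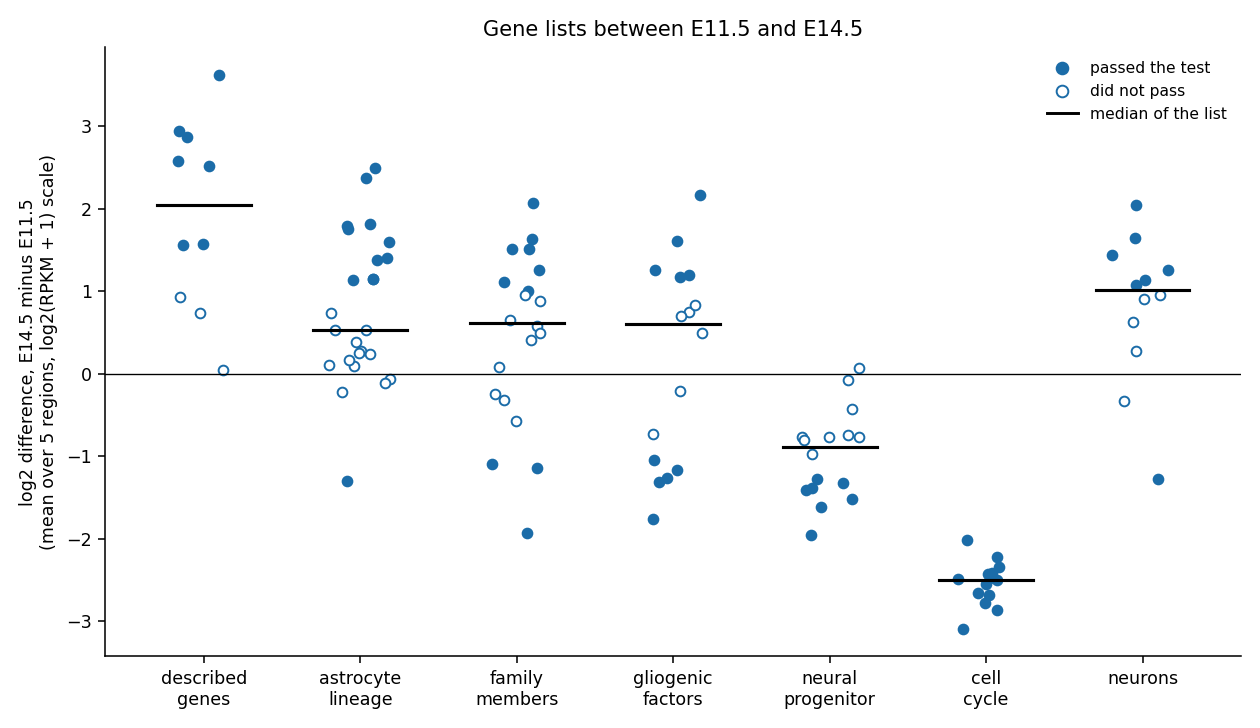
Log2 difference between E14.5 and E11.5, averaged over the 5 regions (y axis), for each tested gene (points) of 7 lists (x axis), the 10 genes described here first. Filled points passed both thresholds and lines are list medians, which were 2.05 for the 10 genes and -2.50 for the cell cycle.

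The dorsal midbrain also differed from the other regions in other lists. All 14 cell cycle genes were higher there, with a median of 1.32, for example Mcm2 (1.18 ± 0.11) and Mcm5 (1.23 ± 0.12). Of 25 astrocyte genes 5 were lower and none was higher, including Bcan (-1.89 ± 0.13), Hepacam (-1.18 ± 0.09) and Slc6a11, a GABA transporter (-1.997 ± 0.17), while Ddah1 (-0.96 ± 0.07) was under the fold threshold. Among gliogenic factors Nfia (-1.17 ± 0.10) was lower and Gli3 (2.33 ± 0.20) and Fgfr2 (1.24 ± 0.10) were higher, 2 higher and 3 lower in all. Mesenchymal and meningeal genes were higher for 5 of 8, and 0 of 12 neuronal genes were called, with a median of -0.49. At E13.5 the 14 cell cycle genes summed to 554 to 711 RPKM in the dorsal midbrain libraries, against 147.5 to 179 RPKM in those of the ventral midbrain. The 8 mesenchymal genes summed to 68.0 to 89.7 RPKM in the dorsal midbrain, against 6.42 to 352.5 RPKM in the ventral midbrain and 4.57 to 7.72 RPKM in the ventral hindbrain. Their part in the lower levels of the 10 genes was not tested.

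The 10 genes moved together unevenly. Over the 20 group means, Pearson's r between pairs of them ran from 0.126 (Slc1a2 and Fabp7) to 0.934 (Slc1a3 and Sparcl1), with a median of 0.703 over 45 pairs and 15 pairs above 0.8. These are descriptions, since groups of a stage share runs and depth. Aldh1l1 and Mt3 followed the mean of the other 9 most closely (0.952 and 0.946), and Slc1a2 and Fabp7 least (0.466 and 0.573). Among 10647 named genes outside the group, the 5 closest to the mean of the 10 were Dpp10 (0.982), Dlgap1 (0.977), Adora1 (0.976), Mar-04, a symbol altered by a spreadsheet (0.975), and Syn2 (0.974). Syn2 and Dlgap1 encode synaptic proteins. The closest gene to each member was Timp4 for Slc1a3 (0.969), Zfp697 for Slc1a2 (0.894), Crim1 for Fabp7 (0.917), Ptprd for Aldoc (0.948), Hpcal4 for Ndrg2 (0.965), Adck1 for Mt3 (0.976), Paqr7 for Sparcl1 (0.928), Mar-04 for Aldh1l1 (0.979), Spock2 for Ttyh1 (0.930) and Dcaf6 for Tnc (0.935).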

How the data were processed

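The authors deposited RPKM values. Reads were mapped with Bowtie to mm10, per the submitters' processing notes; no source used here names the read counter, annotation, filters or strand. The unit was read from the values: whole reads were recovered from the step of each library, and at least 99.99% of values came out whole within 0.01 of a read. All 60 columns were matched to samples by their labels. Genes whose mean reached 1 RPKM in any group of a fit were tested with limma 3.58.1 (mean-variance trend, R 4.3.3) on log2(RPKM + 1), which understates changes of low genes; p-values were adjusted over all genes tested. Regional differences within a stage and differences of change among regions were F tests, and they were called where regional values also spanned at least 1. Stage comparisons used the 30 libraries of both stages, or the 12 of a region, and region comparisons all 60. Counting limits the precision: a gene at 0 reads could have had up to 3. Such limits cover counting error only. The fits were tested on simulated data. The planned count-model alternative was not run, since the deposited unit is not counts, and voom on the recovered reads was added after seeing the data.

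The 10 genes are named in every comparison; from each other list, up to 4 genes with the smallest adjusted p; every tested relative of the 10 genes; and the 5 genes, and 1 per member, closest by Pearson's r. The members and the 15 lists were chosen with earlier results of these data known. One gene that this rule names is not reported here.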

Additional observations from a re-analysis of the deposited data

Results flagged for a closer look

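For 5 of the 10 genes the change between E11.5 and E14.5 differed among the 5 regions, by limma's F test of the interaction over 30 libraries. The adjusted p was 1e-05 for Aldoc, 6.54e-05 for Ndrg2, 0.00132 for Sparcl1, 0.00133 for Aldh1l1 and 0.018 for Tnc. The regional changes spanned 4.63 on the log2 scale for Aldoc, 3.48 for Ndrg2, 3.79 for Sparcl1, 2.42 for Aldh1l1 and 3.40 for Tnc. For Aldoc, Ndrg2 and Aldh1l1 the dorsal midbrain had the smallest change, and for Sparcl1 and Tnc the ventral forebrain did. By name prefixes, no other region shared the dorsal midbrain's pair of runs at E11.5 and E14.5, so run and region cannot be told apart there. The Tnc call was lost with a pseudocount of 0.1 RPKM (adjusted p = 0.245) and with voom on the recovered reads (adjusted p = 0.593). All 3 ventral forebrain libraries at E11.5 are among the 8 that matched another region best.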

How the results depend on the processing

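The 189 results for single genes were set against 1691 values recomputed under the alternatives. Of leaving out 1 library at a time, only the fits with the lowest and highest difference enter. Calls that changed only in other such fits, as for Mt3 in the difference among regions, are not counted. Of the 1691 values, 1598 kept their side of the thresholds, 46 lost the call and 47 gained one. Among results called in either fit, 0 reversed direction. Results called in neither fit could change sign, as Fabp7 did between E14.5 and E11.5 averaged over regions (lowest -0.13 on leaving out 1 library). Counts of the 10 genes that moved by over 1.5 times are as follows. With E12.5 in place of E11.5 (added after seeing the data), the counts between stages were 3 for the mean over regions, 5 in the ventral midbrain, 0 in the ventral forebrain, 3 in the ventral hindbrain, 1 in the dorsal midbrain, 0 in the alar plate and 0 for the difference among regions. Without the 8 E11.5 libraries that match another region best, they were 8 for the difference among regions, 6 for regions at E11.5, and 1, 7 and 1 for the ventral forebrain, ventral hindbrain and alar plate against the others. Choosing libraries by their match in these same values favours differences among regions. That setting left no E11.5 libraries for the change within the ventral forebrain or alar plate, so it gave no value there. With E12.5 and E13.5 only, the ventral forebrain had 3 and the alar plate 1. TMM scaling gave 1 in the alar plate. Without the 2 E12.5 libraries that stand apart (added), the step from E12.5 to E13.5 had 0 and the alar plate 1. Voom (added) gave 2 in the ventral forebrain between stages. Leaving out 1 library at a time gave 5 to 8 for the alar plate between stages and 0 to 1 for the alar plate against the others. The cause was not tested.

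Counts over all genes moved more. With a pseudocount of 0.1 RPKM and with voom they were 2320 and 2360 against 1287 (E12.5 and E11.5), 43 and 33 against 8, and 319 and 287 against 47 for the later steps, and 626 and 611 against 252, 269 and 257 against 114, 675 and 737 against 231, 1480 and 1606 against 663, and 244 and 261 against 91 for the ventral midbrain, ventral forebrain, ventral hindbrain, dorsal midbrain and alar plate. The pseudocount gave 3282 against 2087 for E14.5 and E11.5, and 2 against 16 for regions at E11.5. From E12.5 in place of E11.5 the counts were 127 against 2087 for the mean over regions, 586 against 2468, 189 against 2297, 173 against 2271, 120 against 2158 and 1 against 2786 for the regions in the same order, and 313 against 631 for the difference among regions. Without the 8 E11.5 libraries they were 1154 against 631, 156 against 91 (alar plate) and 1674 against 16 (regions at E11.5), where leaving out 1 library gave 0 to 215. E12.5 and E13.5 only gave 397, 388 and 150 against 252, 231 and 91 for the ventral midbrain, ventral hindbrain and alar plate, and the step from E12.5 to E13.5 gave 4 against 8 without its 2 libraries. All other counts over all genes, the replicate block at E11.5 aside, moved by at most 1.5 times. Among them were the ventral forebrain and ventral hindbrain without the 8 E11.5 libraries (main counts 114 and 231). So were the ventral forebrain with E12.5 and E13.5 only, the alar plate with TMM scaling (91), and voom in the ventral forebrain between stages (2297).

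The labels do not say that replicate numbers pair the samples, and not every same-numbered pair correlated over 0.1, so the numbers were not used as pairs. The data hint at shared numbers from E12.5 on, most at E13.5. The mean correlation of same-numbered libraries was -0.027, 0.132, 0.163 and 0.089 from E11.5 to E14.5, with 10, 18, 21 and 12 of 30 pairs over 0.1, and 5, 10, 15 and 12 of 15 libraries were closest to their own number. The replicate block was not fitted for the stage change within single regions. In the other comparisons it left the counts of the 10 genes the same, 7 of 10 between E14.5 and E11.5 averaged over regions among them. Over all genes, regions at E11.5 had 10 called with it against 16. Depth limits Aldoc, Tnc and Mt3 most.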

Other observations

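Other cell classes were measured in the same comparison of E14.5 with E11.5, averaged over regions. Among 7 pericyte genes 1 rose, Rgs5 (2.38 ± 0.13, limma adjusted p = 3.52e-13), and among 8 endothelial genes 1 rose, the tight junction gene Cldn5 (1.28 ± 0.17, adjusted p = 5.86e-07). Among 7 genes of oligodendrocyte precursors 2 rose, Lhfpl3 (1.71 ± 0.12) and Olig1 (1.88 ± 0.24). Of 8 microglial genes 0 were called, and the largest of their differences was P2ry12 (0.51 ± 0.13). Of 8 mesenchymal and meningeal genes 1 fell, Twist1 (-1.005 ± 0.38), and of 5 tested choroid plexus genes 0 were called, with Ttr at -0.57 ± 0.59. Of 6 red blood cell genes 5 fell and 1 rose. The embryonic globins Hbb-bh1 (-8.13 ± 0.32) and Hba-x (-5.50 ± 0.30) fell, and the adult globin Hbb-bt, named because it was the only one, rose (1.23 ± 0.31). Of 12 genes that mark brain regions 2 fell, Gbx2 (-1.10 ± 0.26) and Foxa2 (-1.03 ± 0.36).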
